A study of Mus musculus with 27 samples.

Results

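The genes described here are the integrin subunits of the mouse heart and the adaptor proteins that tie integrins to the actin cytoskeleton. They were chosen by name, with earlier results of these data known. The rule uses measured values only to take the probe set of highest mean for each symbol. Every gene symbol of the array that names an integrin alpha or beta subunit was taken, together with 13 named adaptors of focal adhesions. This gave 39 genes of the 19937 with a probe set of their own, made up of 18 alpha subunits, 9 beta subunits and 12 adaptors. The adaptor Ptk2, focal adhesion kinase, is not analysed here.

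The hearts came from male C57Bl/6J littermates aged 10 to 12 weeks, and the labels name no mutant allele or transgene in any group. TAC (transverse aortic constriction, a suture around the aortic arch that makes the left ventricle pump against a raised pressure) was followed by injections of JQ1 in the TAC JQ1 group and of vehicle in the TAC vehicle group. The sham vehicle group had sham surgery and vehicle. Injections began 1.5 days after surgery, and hearts were collected at day 3, day 11 or day 28, with 3 arrays in each of the 9 groups. JQ1 is a small molecule that displaces BET bromodomain proteins from acetylated chromatin. No group had sham surgery and JQ1, so the JQ1 comparison is confined to banded hearts. RNA came from a piece of heart of 10 to 20 mg, which can hold any cell type of the tissue. The labels do not say that replicates came from separate litters or surgeries, and p-values measure the spread between these samples.

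Integrins are heterodimers of 1 alpha and 1 beta subunit that span the membrane. Outside the cell they bind matrix proteins such as collagens, laminins and fibronectin, or receptors on other cells. Inside, talins and kindlins bind the beta tail and switch the integrin to its active state, and the complex of integrin-linked kinase, PINCH and parvin, with vinculin, paxillin and zyxin, builds the link to actin. In cardiomyocytes this machinery sits at costameres, where the Z-discs are anchored to the surrounding laminin. Fibroblasts use it to pull on collagen and fibronectin, and leukocytes use it to leave the blood.

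Values are log2 array signals as deposited, so a difference of 1 is a 2-fold change. A gene was called when limma's moderated test gave an adjusted p below 0.05 over all genes tested. All 8 cardiomyocyte markers lay above the dimmest 33% of genes, and their mean log2 signal lay between 13.4 and 13.55 over the 27 arrays. The highest value of any probe set was 14.2, so most of these markers lay near the top of the scale. Their narrow range does not measure the share of cardiomyocytes. Ryr2, the lowest of the 8, had a mean of 12.23 in TAC vehicle hearts at day 28 and 12.68 in sham vehicle hearts. Of these 8 markers, 1 and 2 were called lower with TAC at days 11 and 28, and 1 higher with JQ1 at day 11. Averaged over the 3 days, 4 were lower with TAC and 2 higher with JQ1. Several results at day 3 are also given without 1 of 2 arrays of that day. TAC JQ1 replicate 1 had the lowest array weight of all arrays, 0.215 against a second lowest of 0.461, with weights estimated over all genes. TAC vehicle replicate 2 was the highest of its group for members that include Itgam, Itgb2, Itgax, Itga4, Itga5, Itgav and Itga7. Its own weight, 0.571, was above those of sham vehicle replicates 1 (0.541) and 2 (0.461) of day 3.

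More of these genes were called higher than lower with pressure overload, and more lower than higher with JQ1, at each day. In TAC vehicle hearts at day 3, 8 members were higher and 1 lower than in sham vehicle hearts, beside 4.22% and 3.33% of all genes. At day 11 all 13 called members were higher, where 7.8% of all genes were higher and 7.73% lower. At day 28, 7 members were higher and 3 lower, beside 8.13% and 6.98% of all genes. Of the 39 members, 20 were called on at least 1 day, beside 24.6% of all genes, and Itgam, Itgb2 and Parva were higher on all 3 days, beside 1.74%. The day 3 count rested on TAC vehicle replicate 2, since 4 members (Itga5, Itgam, Parva and Tln1) were called without it. When only the groups compared were fitted, Itga5 was the 1 member called at day 3, and the other 8 had an adjusted p of 0.0716 to 0.161. At day 28, 6 members were called without sham vehicle replicate 2 or without TAC vehicle replicate 3.

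With JQ1 in banded hearts, 2 members were higher and 10 lower than with vehicle at day 3, beside 4.28% and 7.61% of all genes. At day 11, 2 were higher and 16 lower, beside 7.52% and 8.43%. At day 28, 3 were higher and 14 lower, beside 7.16% and 12.4%. Without TAC JQ1 replicate 1, 8 members were called at day 3. When only the groups compared were fitted, Itgb6 was the 1 member called at day 3, the other 11 had an adjusted p of 0.0525 to 0.299, and 9 members were called at day 28. At day 11, 11 were called without TAC vehicle replicate 2 or without TAC JQ1 replicate 1. Itga1, Itga4, Itga9, Itga11, Itgam, Itgb6 and Itgb8 were lower on all 3 days, beside 3.33% of all genes. Of the 39 members, 24 were called on at least 1 day, beside 30.6%.

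At day 11, JQ1 lowered 9 of 18 alpha subunits and 4 of 9 beta subunits, while of 12 adaptors it lowered 3 and raised 2, of which quantile normalization ended both rises. The median log2 difference over the 39 members was -0.13, -0.22 and -0.13 at days 3, 11 and 28, beside 0.02, -0.05 and 0.06 over all genes. Averaged over the 3 days, 17 members were higher and 1 lower with TAC, beside 13% and 12.9% of all genes, and 4 were higher and 21 lower with JQ1, beside 12.3% and 16.8%. The TAC and JQ1 comparisons use the same TAC vehicle arrays, so a high value in those arrays moves them in opposite directions.

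**Figure D1:**
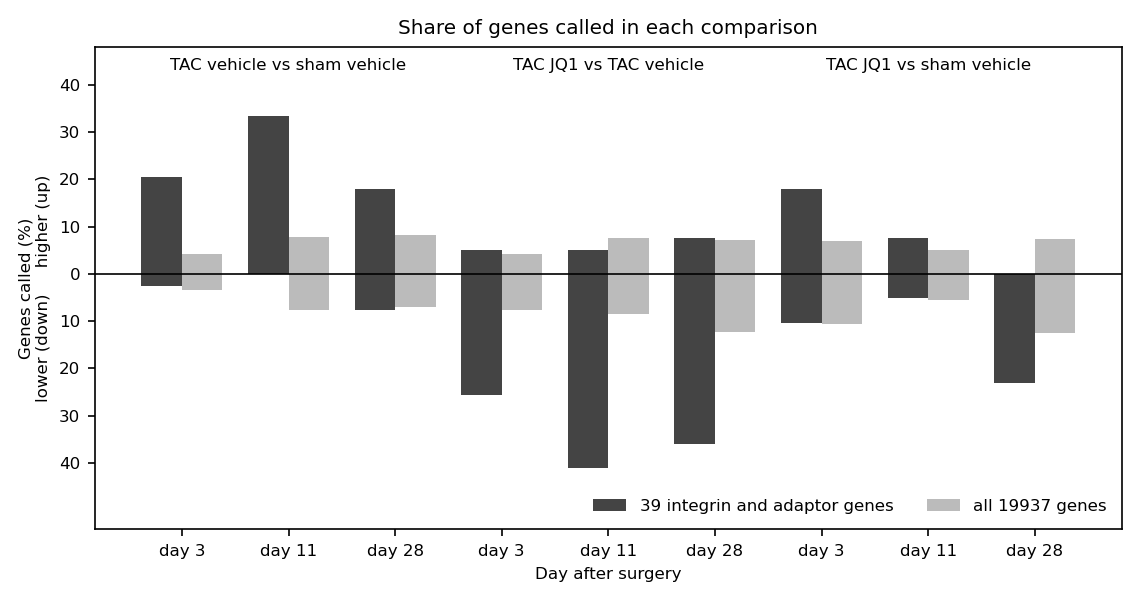
Bars give the percentage of genes called higher (up) or lower (down) in each comparison and day, for the 39 integrin and adaptor genes (dark) and for all 19937 genes (light). The share of members called higher in TAC vehicle over sham vehicle hearts was 33.3% at day 11, and the share called lower with JQ1 was 41% on the same day.

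**Figure D2:**
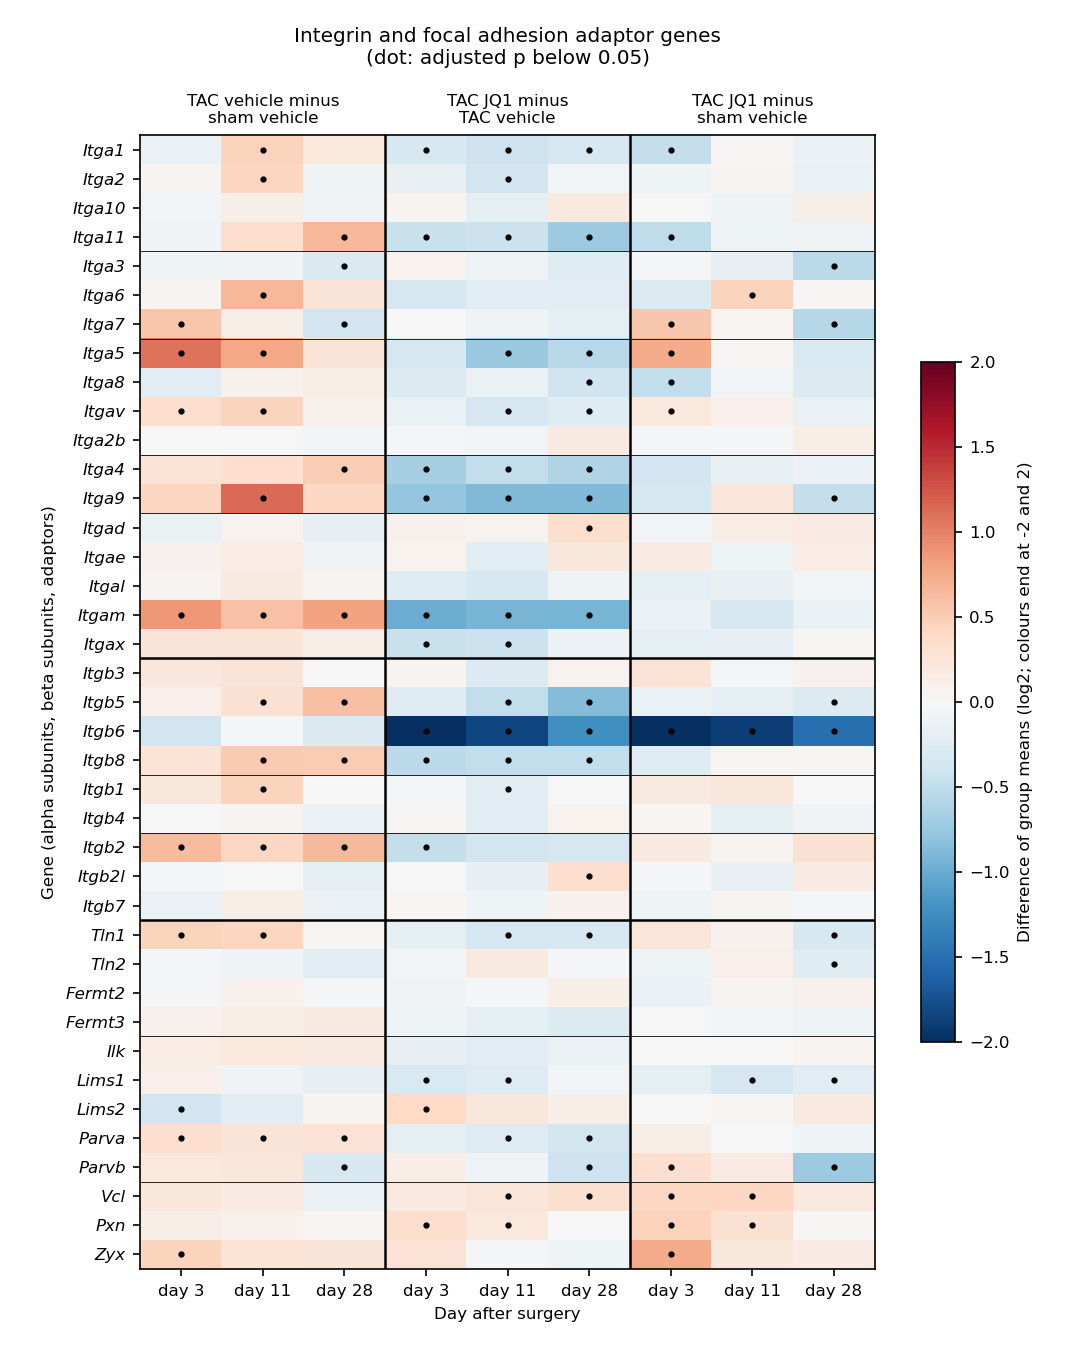
Colour gives the log2 difference of group means for each gene and day, red where the first-named group was higher, with dots on differences of adjusted p below 0.05. Thick lines part alpha subunits, beta subunits and adaptors. Itgb6 is the darkest blue row in the columns of both comparisons with TAC JQ1 hearts, with differences of -2.07 and -2.45 at day 3.

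The largest difference among the members was that of Itgb6, the beta subunit that pairs with alpha v and is known for binding the latent form of TGF-beta, mostly from work on epithelia. Vcl, vinculin, which reinforces the talin to actin link under load, was higher with JQ1. Averaged over the 3 days, Itgb6 had the largest fall (-1.71) and Vcl the largest rise (0.26) with JQ1 among the members. The lead of Vcl was narrow, since over the alternatives its rise was 0.23 to 0.28 and that of Lims2 0.20 to 0.29. The sequences of Itgb6 and Vcl before the RefSeq start are shown because both hold a CArG box, a motif that serum response factor binds. These 2 genes were picked after these values were seen. Each is the 250 bases before a start, 5′ to 3′ on the gene's strand, from RefSeq (GRCm38.p6), with the CArG box in capitals. Itgb6 has 2 annotated starts on the minus strand, and the box lies at only 1 of them. The coordinates are chr2:60673694-60673943 and chr2:60722604-60722853 for Itgb6, and chr14:20929148-20929397 on the plus strand for Vcl.
Itgb6, start with the box: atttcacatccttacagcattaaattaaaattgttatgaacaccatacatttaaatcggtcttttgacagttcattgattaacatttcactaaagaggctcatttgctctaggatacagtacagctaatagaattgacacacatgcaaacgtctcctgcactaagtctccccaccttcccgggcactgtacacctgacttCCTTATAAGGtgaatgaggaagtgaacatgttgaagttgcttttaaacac
Itgb6, other start: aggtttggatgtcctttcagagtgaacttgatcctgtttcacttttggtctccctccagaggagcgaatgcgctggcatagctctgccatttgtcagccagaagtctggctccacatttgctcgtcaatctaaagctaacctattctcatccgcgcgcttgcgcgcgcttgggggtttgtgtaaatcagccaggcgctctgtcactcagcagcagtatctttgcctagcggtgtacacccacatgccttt
Vcl: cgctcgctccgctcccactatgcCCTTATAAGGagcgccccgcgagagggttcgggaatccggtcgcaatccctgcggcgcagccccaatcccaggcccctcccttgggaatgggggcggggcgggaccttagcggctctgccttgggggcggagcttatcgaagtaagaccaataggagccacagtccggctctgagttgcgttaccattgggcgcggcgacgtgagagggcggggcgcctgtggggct
The box reads CCTTATAAGG in both genes and, being a palindrome, is the same on both strands. Its first base lies 50 bases before the Itgb6 start and 227 bases before the Vcl start. A CArG box on either strand was found in 1.47% of the 32851 promoter windows of the table, and in 3 of the 32 windows of the 27 members with an entry, the remaining one being that of Fermt2. Among these 32 windows, the GC box GGGCGG was in 13 (32.7% of all windows), AP-1 TGANTCA in 2 (6.75%), the TEAD motif GGAATG in 3 (12.6%) and the ETS motif GAGGAAGT in 5 (2.44%). Only the CArG box is marked in the sequences above. The Itgb6 window with the box also holds 1 ETS motif, and the Vcl window holds 4 GC boxes and 1 TEAD motif. These matches are letters in a window and do not show that a factor binds. Which Itgb6 start gives the RNA seen by the probe set is not known from these data.

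Itgb6 was lower with JQ1 at every day, while banding alone gave no call. At day 3 its log2 signal was 6.09, 7.32 and 7.14 in TAC JQ1 hearts, against 8.95, 8.99 and 8.83 in TAC vehicle hearts and 9.51, 9.24 and 9.14 in sham vehicle hearts. At day 11 it was 7.52, 7.22 and 7.24 in TAC JQ1 hearts, 9.21, 8.93 and 9.37 in TAC vehicle hearts, and 9.02, 9.17 and 9.43 in sham vehicle hearts. At day 28 it was 7.62, 7.34 and 7.49 in TAC JQ1 hearts, 8.69, 8.93 and 8.48 in TAC vehicle hearts, and 8.90, 9.04 and 9.03 in sham vehicle hearts. All 9 JQ1 arrays lay below all 18 others. As a background for such statements, TAC JQ1 and TAC vehicle arrays did not overlap for 23.1%, 36.3% and 35% of all genes at days 3, 11 and 28. The shares were 26.6%, 32.6% and 33.3% for TAC JQ1 against sham vehicle arrays, and 21.6%, 33.4% and 37.7% for TAC vehicle against sham vehicle arrays.

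Against TAC vehicle hearts the log2 difference of Itgb6 was -2.07 ± 0.2 (SE, n = 3 arrays a group, adjusted p = 6.19e-07, limma) at day 3, a 4.21-fold lower signal. It was -1.84 ± 0.2 (adjusted p = 3.32e-06, limma) at day 11 and -1.22 ± 0.2 (adjusted p = 0.000151, limma) at day 28. Without TAC JQ1 replicate 1, the array with the lowest value, the difference at day 3 was -1.70 (adjusted p = 2.27e-07, limma). Against sham vehicle hearts Itgb6 was lower by 5.47-fold, 3.68-fold and 2.84-fold at days 3, 11 and 28, and it was the 1 member called lower than in sham hearts on all 3 days, beside 2.93% of all genes. The sizes at the 3 days were not called different from each other in the F test of the JQ1 effect over days. Of 8 epithelial and mesothelial markers, the cells in which Itgb6 is best known, 1 was higher with TAC at day 11, and with JQ1 1 was lower at day 11 and 3 were higher at day 28. Their mean log2 signal stayed between 6.49 and 6.87 over all arrays, and 4 of them (Upk3b, Krt19, Epcam and Lrrn4) lay in the dimmest 33% of genes.

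Of the other beta subunits that pair with alpha v, TAC raised Itgb5 and Itgb8, and JQ1 lowered both. Itgb5, a subunit of a vitronectin receptor, had a log2 signal of 10.41, 10.44 and 10.18 in TAC JQ1 hearts at day 11, against 10.88, 10.82 and 10.84 in TAC vehicle hearts and 10.57, 10.55 and 10.52 in sham vehicle hearts. On day 28 the values were 10.14, 10.20 and 10.22 in TAC JQ1 hearts, 11.18, 10.78 and 11.18 in TAC vehicle hearts, and 10.37, 10.46 and 10.52 in sham vehicle hearts. No groups overlapped at day 11 or day 28, and TAC JQ1 hearts lay below sham hearts on both days. TAC raised Itgb5 by 0.30 ± 0.08 (SE) at day 11 and 0.60 ± 0.08 at day 28 (adjusted p = 0.0151 and 3.52e-05, limma), beside 0.10 ± 0.08 at day 3. The call at day 11 ended without sham vehicle replicate 3 (adjusted p = 0.0557) or TAC vehicle replicate 1 (0.0575).

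The JQ1 difference of Itgb5 was larger at later days. It was -0.24 ± 0.08 at day 3 (SE, n = 3 arrays a group, adjusted p = 0.0702, limma), -0.50 ± 0.08 at day 11 (adjusted p = 0.000231, limma) and -0.86 ± 0.08 at day 28 (adjusted p = 3.03e-07, limma). Itgb5 was the single member for which the JQ1 effect differed between days (moderated F test, adjusted p = 0.0305, limma), beside 1.07% of all genes called. That call ended without any 1 of 11 of the 18 arrays, with an adjusted p of at most 0.0921. Against sham hearts, the level in TAC JQ1 hearts at day 28 was lower by 0.27 on the log2 scale (difference -0.27 ± 0.08 SE, adjusted p = 0.0271), a call that ended without sham vehicle replicate 2 (0.0767) or 3 (0.118), or TAC JQ1 replicate 1 (0.103) or 2 (0.05).

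Itgb8, whose product with alpha v also binds latent TGF-beta, had a log2 signal of 6.66, 6.98 and 6.90 in TAC JQ1 hearts at day 3, against 7.25, 7.55 and 7.32 in TAC vehicle hearts. On day 11 the values were 6.84, 7.06 and 7.05 in TAC JQ1 hearts, 7.39, 7.42 and 7.62 in TAC vehicle hearts, and 6.89, 6.96 and 6.98 in sham vehicle hearts. At day 28 the signal was 7.06, 6.95 and 6.76 in TAC JQ1 hearts, 7.61, 7.10 and 7.55 in TAC vehicle hearts, and 7.03, 6.74 and 6.94 in sham vehicle hearts. TAC vehicle arrays were the high ones on each of these days, and TAC JQ1 arrays overlapped with sham arrays at days 11 and 28. The JQ1 difference was -0.53, -0.49 and -0.49 (SE 0.12 each) at days 3, 11 and 28, with adjusted p between 0.00486 and 0.00625 (limma). The JQ1 calls of days 3 and 28 ended when only the groups compared were fitted (0.0605 and 0.0576). TAC raised Itgb8 by 0.53 at day 11 and 0.51 at day 28 (SE 0.12, adjusted p = 0.00297 and 0.00428, limma). Itgb3, the beta subunit of the platelet fibrinogen receptor and of another vitronectin receptor, was called at no day in any comparison.

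Itgb1, the partner of most matrix-binding alpha subunits, rose at day 11. Its log2 signal then was 11.05, 11.10 and 11.06 in TAC JQ1 hearts, 11.31, 11.26 and 11.29 in TAC vehicle hearts, and 10.81, 10.82 and 10.90 in sham vehicle hearts. The 3 groups did not overlap, and TAC JQ1 hearts lay between the others. The TAC difference was 0.44 ± 0.07 (SE, adjusted p = 0.00017, limma) and the JQ1 difference -0.22 ± 0.07 (adjusted p = 0.0482, limma). The JQ1 call ended without any 1 of its 6 arrays (adjusted p 0.0887 to 0.138). Itgb4, which pairs with alpha 6 in hemidesmosomes, was called at no day.

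**Figure D3:**
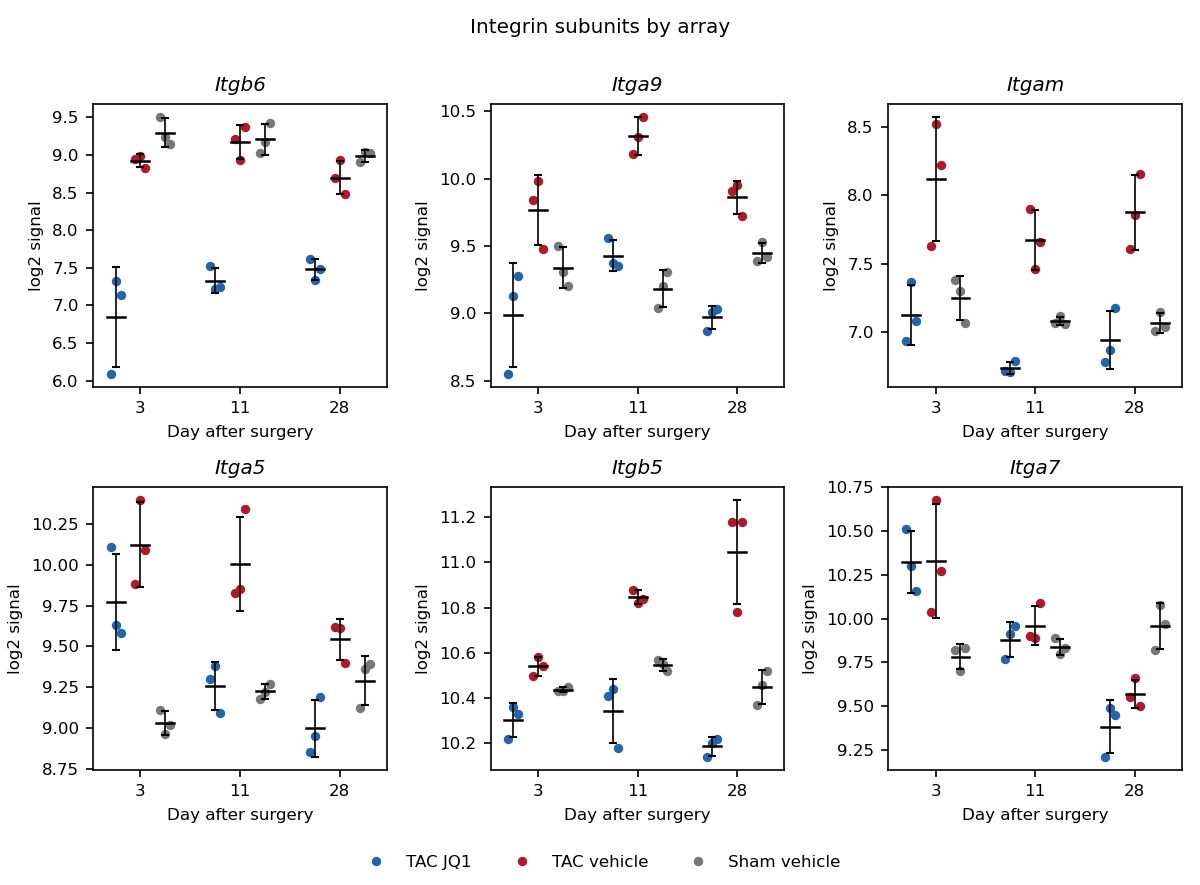
Each panel plots the log2 signal of 1 integrin gene by day after surgery. Points are arrays (blue TAC JQ1, red TAC vehicle, grey sham vehicle), and black bars are the group mean with its SD (n = 3). Itgb6 is low in the TAC JQ1 arrays of every day, while Itga9, Itgam and Itgb5 are high in TAC vehicle arrays at days 11 and 28.

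Among the collagen receptors, Itga1 and Itga11 were lower with JQ1 on all 3 days. Itga11, the subunit of a fibrillar collagen receptor known from fibroblasts, had a log2 signal of 7.13, 6.92 and 6.83 in TAC JQ1 hearts at day 28, against 7.85, 7.45 and 7.79 in TAC vehicle hearts and 6.92, 7.05 and 7.11 in sham vehicle hearts. TAC vehicle arrays lay above all others that day, and TAC JQ1 arrays spread over the sham range. With TAC the difference was 0.67 ± 0.15 (SE, adjusted p = 0.0024, limma) and the JQ1 difference -0.73 ± 0.15 (adjusted p = 0.000822, limma). At days 3 and 11 the JQ1 differences were -0.45 and -0.43 (SE 0.15, adjusted p = 0.0464 and 0.046, limma). Without TAC JQ1 replicate 1 the day 3 value was -0.22 (adjusted p = 0.349), and the call also ended without TAC vehicle replicate 1 (0.103), 2 (0.134) or 3 (0.0798). The day 11 call ended without TAC vehicle replicate 1 (0.203) or 2 (0.149), or any TAC JQ1 array (0.0685 to 0.156). Against sham, TAC JQ1 hearts were lower in Itga11 at day 3 (-0.51 ± 0.15, adjusted p = 0.015, limma), a call that ended without sham vehicle replicate 2 (0.0778) or TAC JQ1 replicate 1 (0.153).

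Itga1, which pairs with Itgb1 as a receptor for collagen of basement membranes, was higher with TAC by 0.44 ± 0.1 (SE, adjusted p = 0.00425, limma) at day 11. With JQ1 it was lower by 0.32, 0.41 and 0.33 (differences -0.32, -0.41 and -0.33, SE 0.1, adjusted p = 0.0439, 0.0079 and 0.0271, limma) at days 3, 11 and 28. The day 3 call ended without TAC vehicle replicate 1 (0.192) or 2 (0.117), or TAC JQ1 replicate 1 (0.232) or 2 (0.148). The day 28 call ended without TAC vehicle replicate 1 (0.0663) or 2 (0.118), or TAC JQ1 replicate 2 (0.193). At day 3 the TAC JQ1 hearts, at 9.38, 9.46 and 9.80, also lay below the sham vehicle hearts, at 10.07, 10.02 and 9.96, a difference of -0.47 ± 0.1 (adjusted p = 0.00241, limma). That call ended when only the groups compared were fitted (0.0624).

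Itga2, another collagen receptor subunit, followed Itga1 at day 11, with a TAC difference of 0.43 ± 0.1 (SE, adjusted p = 0.00504, limma) and a JQ1 difference of -0.38 ± 0.1 (adjusted p = 0.0141, limma). The JQ1 call ended without TAC vehicle replicate 2 (0.0893) or TAC JQ1 replicate 1 (0.099). Itga10, the subunit known from cartilage, was called at no day. Fibroblast markers moved with these genes only in part. Of 8 such markers, 2 were higher and 1 lower with TAC at day 3, 5 were higher at day 11 and 8 at day 28. With JQ1, 3 were lower on each day and 1 was higher at day 3, and the rest had no call. At day 28, Itga11 was the 1 collagen receptor subunit called higher with TAC. The mean log2 signal of the fibroblast markers at day 28 was 10.06 to 10.37 in TAC JQ1 hearts, 10.26 to 10.69 in TAC vehicle hearts and 9.73 to 9.75 in sham vehicle hearts. The part of fibroblasts in the result was not tested. Of 8 endothelial markers, 2 and 1 were higher with TAC at days 11 and 28, and 2, 2 and 6 were lower with JQ1 at days 3, 11 and 28. In a piece of tissue, fewer cells of a type and less RNA per cell cannot be told apart.

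The laminin receptor subunits were called on different days. Itga7, the main laminin-binding partner of Itgb1 in striated muscle, was above sham early and below it late. At day 3 its log2 signal was 10.51, 10.30 and 10.16 in TAC JQ1 hearts, 10.04, 10.68 and 10.27 in TAC vehicle hearts, and 9.82, 9.70 and 9.83 in sham vehicle hearts. At day 11 the signal was 9.77, 9.91 and 9.96 in TAC JQ1 hearts, 9.90, 9.89 and 10.09 in TAC vehicle hearts, and 9.89, 9.80 and 9.83 in sham vehicle hearts. By day 28 it was 9.21, 9.49 and 9.45 in TAC JQ1 hearts, 9.55, 9.66 and 9.50 in TAC vehicle hearts, and 9.82, 10.08 and 9.97 in sham vehicle hearts. Both banded groups lay above sham at day 3 and below it at day 28, with overlap at day 11.

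The TAC difference of Itga7 was 0.55 ± 0.12 (SE, adjusted p = 0.0053, limma) at day 3, 0.12 ± 0.12 (adjusted p = 0.633) at day 11 and -0.38 ± 0.12 (adjusted p = 0.0304, limma) at day 28. The TAC effect differed between days (moderated F test, adjusted p = 0.016, limma). This F test called 2 members beside 1.31% of all genes. The F call ended without sham vehicle replicate 2 of day 28 (0.0574) or TAC vehicle replicate 3 of day 28 (0.0505). Without TAC vehicle replicate 2 the day 3 difference was 0.37 (adjusted p = 0.0771), and the day 28 call ended without sham vehicle replicate 2 (0.134) or 3 (0.0794), or TAC vehicle replicate 1 (0.078) or 3 (0.124). JQ1 gave no call for Itga7, with differences of 0.00, -0.08 and -0.19, and TAC JQ1 hearts differed from sham by 0.54 ± 0.12 at day 3 and -0.57 ± 0.12 at day 28 (adjusted p = 0.00234 and 0.0011, limma).

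Itga6, the laminin receptor subunit of endothelium and many other cells, rose at day 11 and was also called above sham in TAC JQ1 hearts that day. Its log2 signal was 10.10, 10.04 and 9.93 in TAC JQ1 hearts, 10.29, 10.21 and 10.24 in TAC vehicle hearts, and 9.46, 9.59 and 9.71 in sham vehicle hearts. No groups overlapped. The TAC difference was 0.66 ± 0.12 (SE, adjusted p = 0.000576, limma), and TAC JQ1 hearts lay 0.44 ± 0.12 above sham (adjusted p = 0.024, limma). The second call ended without sham vehicle replicate 1 (0.123) or 2 (0.0679), or TAC JQ1 replicate 1 (0.106) or 2 (0.0762). With JQ1, Itga6 had no call on a single day. Averaged over the 3 days it was called lower, and that call held in all 26 alternatives (-0.32 to -0.22).

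Itga3, a laminin receptor subunit best known from epithelia, was lower at day 28, with 6.89, 7.23 and 7.13 in TAC JQ1 hearts, 7.38, 7.46 and 7.16 in TAC vehicle hearts, and 7.50, 7.71 and 7.66 in sham vehicle hearts. With TAC the difference was -0.29 ± 0.09 (SE, adjusted p = 0.0277, limma), and that of TAC JQ1 against sham -0.54 ± 0.09 (adjusted p = 0.000102, limma). The TAC call ended without sham vehicle replicate 2 (0.123) or 3 (0.0873), or TAC vehicle replicate 3 (0.21).

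Among the receptors that read the RGD motif of fibronectin and vitronectin, Itga5 had the largest early rise. Itga5, the partner of Itgb1 in the classical fibronectin receptor, had a log2 signal of 10.11, 9.63 and 9.58 in TAC JQ1 hearts at day 3, against 9.88, 10.40 and 10.09 in TAC vehicle hearts and 9.11, 8.96 and 9.02 in sham vehicle hearts. By day 11 it was 9.30, 9.38 and 9.09 in TAC JQ1 hearts, 9.83, 9.85 and 10.34 in TAC vehicle hearts, and 9.18, 9.22 and 9.27 in sham vehicle hearts. At day 3 both banded groups lay above sham and overlapped with each other, while at day 11 TAC JQ1 arrays overlapped with sham and lay below TAC vehicle. TAC raised Itga5 2.13-fold at day 3 (log2 difference 1.09 ± 0.15 SE, adjusted p = 8.03e-05, limma) and 1.72-fold at day 11 (0.78 ± 0.15, adjusted p = 0.000559, limma). Without TAC vehicle replicate 2 the day 3 value was 0.95 (adjusted p = 0.00131).

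The JQ1 difference of Itga5 was -0.35 ± 0.15 (SE, adjusted p = 0.139, limma) at day 3, -0.75 ± 0.15 (adjusted p = 0.00102) at day 11 and -0.55 ± 0.15 (adjusted p = 0.0101) at day 28. The day 28 call ended without TAC JQ1 replicate 1 (0.0524), and at day 3, leaving out TAC JQ1 replicate 1 gave -0.52 (adjusted p = 0.0324). At day 3 TAC JQ1 hearts remained 0.74 ± 0.15 above sham (adjusted p = 0.000863, limma). Itgav, the alpha subunit shared by Itgb3, Itgb5, Itgb6 and Itgb8, had a log2 signal of 9.20, 9.23 and 9.12 in TAC JQ1 hearts at day 11, against 9.44, 9.57 and 9.55 in TAC vehicle hearts and 9.01, 9.12 and 9.11 in sham vehicle hearts. TAC vehicle arrays stood clear of both other groups, with a TAC difference of 0.44 ± 0.07 (adjusted p = 0.000158) and a JQ1 difference of -0.34 ± 0.07 (adjusted p = 0.00232).

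At day 3 Itgav was 9.32, 9.62 and 9.31 in TAC vehicle hearts and 9.08, 9.05 and 9.08 in sham vehicle hearts, a difference of 0.35 ± 0.07 (SE, adjusted p = 0.00399, limma) that was 0.25 (adjusted p = 0.0573) without TAC vehicle replicate 2. At day 28 the JQ1 difference of Itgav was -0.24 ± 0.07 (adjusted p = 0.0251, limma), a call that ended without TAC vehicle replicate 1 (0.0768) or 3 (0.0899), or TAC JQ1 replicate 2 (0.112). Itga8, the nephronectin receptor subunit, was lower with JQ1 at day 28 alone (-0.40 ± 0.12, adjusted p = 0.0201, limma), and that call ended without TAC vehicle replicate 1 (0.109) or TAC JQ1 replicate 2 (0.115). At day 3 it was lower in TAC JQ1 hearts than in sham hearts by 0.49 (difference -0.49, adjusted p = 0.00501), with -0.32 (adjusted p = 0.0536) without TAC JQ1 replicate 1. Itga2b, the platelet fibrinogen receptor subunit, was called at no day. Of 5 platelet markers, 1 was higher with TAC at day 28 and 2 were lower with JQ1 at day 3.

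Itga9 and Itga4, a related pair of alpha subunits, were lower with JQ1 on all 3 days. Itga9 binds tenascin-C and the alternatively spliced fibronectin of injured tissue. Its log2 signal at day 3 was 8.55, 9.13 and 9.28 in TAC JQ1 hearts, 9.84, 9.98 and 9.48 in TAC vehicle hearts, and 9.50, 9.31 and 9.20 in sham vehicle hearts. At day 11 it was 9.56, 9.37 and 9.35 in TAC JQ1 hearts, 10.18, 10.31 and 10.46 in TAC vehicle hearts, and 9.04, 9.20 and 9.31 in sham vehicle hearts. At day 28 it was 8.87, 9.01 and 9.03 in TAC JQ1 hearts, 9.91, 9.95 and 9.72 in TAC vehicle hearts, and 9.39, 9.53 and 9.42 in sham vehicle hearts. TAC vehicle arrays lay above TAC JQ1 arrays at every day, and at day 28 TAC JQ1 arrays also lay below sham.

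TAC raised Itga9 2.19-fold at day 11 (log2 difference 1.13 ± 0.14 SE, adjusted p = 7.22e-06, limma), beside 0.43 and 0.41 at days 3 and 28 (adjusted p = 0.0667 and 0.0516). With JQ1 the difference was -0.78, -0.89 and -0.89 (SE 0.14) at days 3, 11 and 28, with adjusted p of 0.000724, 0.000147 and 9.51e-05 (limma). Without TAC JQ1 replicate 1 the day 3 value was -0.56 (adjusted p = 0.00634), and the day 3 call ended when only the groups compared were fitted (0.0824). Against sham, TAC JQ1 hearts at day 28 differed by -0.48 ± 0.14 (adjusted p = 0.0183), a call that ended without sham vehicle replicate 2 (0.0749) or TAC JQ1 replicate 1 (0.0847). Tnc, which codes for tenascin-C, its matrix ligand, was higher with TAC at day 3 by 3.43 ± 0.37 (log2, adjusted p = 5.8e-06, limma).

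Itga4, which with Itgb1 binds VCAM1 and fibronectin and is abundant on leukocytes, had a log2 signal of 6.52, 6.90 and 7.10 in TAC JQ1 hearts at day 3, against 7.39, 7.71 and 7.41 in TAC vehicle hearts. On day 28 the values were 7.17, 6.95 and 6.55 in TAC JQ1 hearts, 7.35, 7.49 and 7.63 in TAC vehicle hearts, and 6.87, 6.97 and 7.17 in sham vehicle hearts. TAC JQ1 and TAC vehicle arrays did not overlap on either day. The JQ1 difference was -0.66, -0.49 and -0.60 (SE 0.14, adjusted p = 0.00197, 0.0144 and 0.00268, limma) at days 3, 11 and 28. Without TAC JQ1 replicate 1 the day 3 value was -0.50 (adjusted p = 0.0227), and the day 3 call ended when only the groups compared were fitted (0.0673). The day 11 call ended without TAC vehicle replicate 2 (0.06) or TAC JQ1 replicate 1 (0.0598). TAC raised Itga4 at day 28 (0.49 ± 0.14, adjusted p = 0.0151), a call that ended without sham vehicle replicate 1 (0.0824) or 2 (0.0525), or TAC vehicle replicate 3 (0.0953).

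Of the leukocyte integrins, both Mac-1 subunits were higher with TAC on all 3 days, and the lymphocyte subunits had no call on any single day. Itgam, the alpha subunit of Mac-1 on macrophages, monocytes and neutrophils, had a log2 signal of 6.94, 7.37 and 7.08 in TAC JQ1 hearts at day 3, against 7.63, 8.52 and 8.22 in TAC vehicle hearts and 7.38, 7.30 and 7.07 in sham vehicle hearts. On day 11 the values were 6.72, 6.71 and 6.79 in TAC JQ1 hearts, 7.90, 7.46 and 7.66 in TAC vehicle hearts, and 7.07, 7.12 and 7.06 in sham vehicle hearts. At day 28 the signal was 6.78, 6.87 and 7.18 in TAC JQ1 hearts, 7.61, 7.86 and 8.16 in TAC vehicle hearts, and 7.01, 7.15 and 7.04 in sham vehicle hearts. TAC vehicle arrays lay above the TAC JQ1 arrays on all 3 days, and TAC JQ1 arrays overlapped with sham at days 3 and 28.

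TAC raised Itgam by 0.87, 0.59 and 0.80 (log2, SE 0.17, adjusted p = 0.00203, 0.0173 and 0.00178, limma) at days 3, 11 and 28. The day 11 call ended without sham vehicle replicate 1 (0.0556) or 3 (0.0537), or TAC vehicle replicate 1 (0.106). With JQ1 the difference was -1.0, -0.93 and -0.93 (SE 0.17, adjusted p = 0.000372, 0.000501 and 0.000348, limma), a signal 1.99-fold lower at day 3 and 1.91-fold lower at days 11 and 28. Fitting only the groups compared ended the day 3 calls of Itgam with TAC (adjusted p = 0.0716) and with JQ1 (0.0525). Against sham, TAC JQ1 hearts differed in Itgam by -0.12, -0.34 and -0.13, with no call. Itgb2, the beta subunit of Mac-1, rose with TAC by 0.64, 0.42 and 0.65 (SE 0.14, adjusted p = 0.0052, 0.0433 and 0.00236, limma).

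Itgb2 read 7.95, 7.91 and 7.68 in TAC JQ1 hearts at day 3, against 7.81, 8.71 and 8.41 in TAC vehicle hearts and 7.70, 7.71 and 7.59 in sham vehicle hearts. At day 28 it read 7.83, 8.13 and 8.15 in TAC vehicle hearts and 7.45, 7.44 and 7.26 in sham vehicle hearts. The day 3 groups with and without JQ1 overlapped, with TAC vehicle replicate 1 inside the TAC JQ1 range. The JQ1 difference was -0.47 ± 0.14 (SE, adjusted p = 0.0316, limma) at day 3, where the call ended without TAC vehicle replicate 2 (difference -0.27, adjusted p = 0.264) or 3 (0.11), or TAC JQ1 replicate 1 (0.0501) or 3 (0.115). It was -0.37 and -0.34 at days 11 and 28 (adjusted p = 0.0798 and 0.0924). The TAC difference of day 3 was 0.45 (adjusted p = 0.0773) without TAC vehicle replicate 2, and the call of day 11 ended without any 1 of 5 of its 6 arrays (0.0662 to 0.157).

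Itgax, the subunit of dendritic cells and macrophages, lay in the dimmest 33% of genes and was lower with JQ1 at day 3 (-0.44 ± 0.13 SE, adjusted p = 0.0229, limma) and day 11 (-0.43 ± 0.13, adjusted p = 0.0235). Its log2 signal at day 3 was 6.15, 6.21 and 6.01 in TAC JQ1 hearts and 6.26, 6.84 and 6.60 in TAC vehicle hearts, with no overlap. The day 3 call ended without TAC vehicle replicate 2 (0.175) or 3 (0.0659), or TAC JQ1 replicate 1 (0.0567) or 3 (0.0763), and the day 11 call without any 1 of 5 of its 6 arrays (0.0563 to 0.0906). Itgad, a further partner of Itgb2, was higher with JQ1 at day 28 (0.35 ± 0.09, adjusted p = 0.00842), and so was Itgb2l (0.34 ± 0.12, adjusted p = 0.048), a gene close to Itgb2 in sequence. The Itgb2l call ended without TAC vehicle replicate 1 (0.05), 2 (0.158) or 3 (0.107), or TAC JQ1 replicate 2 (0.245). Itgal, Itgae and Itgb7, subunits of lymphocyte receptors, were called at no day. Averaged over the 3 days, Itgal was lower with JQ1 (-0.22 ± 0.07 SE, adjusted p = 0.0185, limma). Itgae lay in the dimmest 33% of genes.

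Leukocyte and macrophage markers moved in the same direction as Itgam and Itgb2 with TAC and with JQ1, and none of them is a member. Not all leukocyte integrins did so. Itgad and Itgb2l were higher with JQ1 at day 28, and Itgal, Itgae and Itgb7 had no call on any single day. At day 28 the marker mean and Itgb2 lay above sham in TAC JQ1 hearts, while Itgam and Itga4 overlapped with sham. Of 14 markers, 6, 13 and 13 were higher with TAC and 10, 12 and 10 lower with JQ1 at days 3, 11 and 28. Their mean log2 signal at day 28 was 8.61 to 9.06 in TAC JQ1 hearts, 9.26 to 9.62 in TAC vehicle hearts and 8.28 to 8.41 in sham vehicle hearts. At day 3 it was 8.52 to 8.66 in TAC JQ1 hearts, 9 to 9.5 in TAC vehicle hearts and 8.57 to 8.87 in sham vehicle hearts. Of 6 neutrophil markers, 1 was higher with TAC at day 28, 1 was lower with JQ1 at day 3 and 1 at day 28, and 3 of the 6 lay in the dimmest 33% of genes. Of 7 lymphocyte markers, 4 lay in the dimmest 33%, and 1 was higher with TAC at day 11. The part of these cells in the results for Itgam, Itgb2, Itga4 and Itgax was not tested.

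**Figure D4:**
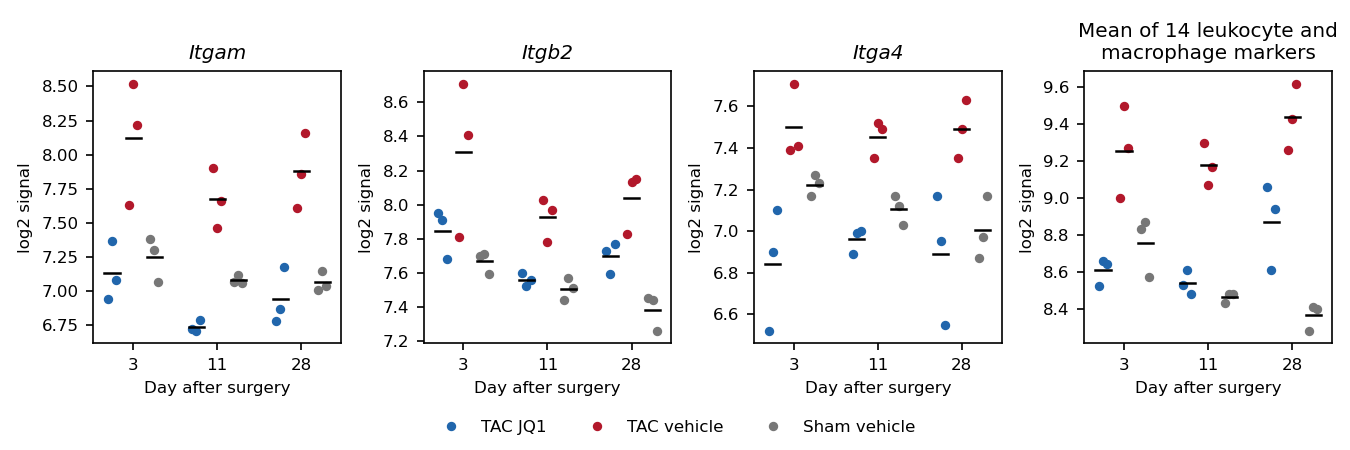
Panels plot the log2 signal of Itgam, Itgb2 and Itga4 and the mean of 14 leukocyte and macrophage markers by day after surgery. Points are arrays (blue TAC JQ1, red TAC vehicle, grey sham vehicle) and black bars are group means (n = 3). The marker mean is highest in TAC vehicle arrays at each day, between 9 and 9.62, and at day 28 TAC JQ1 arrays lie between the other groups for the markers.

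The adaptors did not move as 1 group. With JQ1, Parva and Tln1 were lower at days 11 and 28, while Vcl was higher at days 11 and 28 and Pxn at days 3 and 11. Vcl had a log2 signal of 10.53, 10.54 and 10.49 in TAC JQ1 hearts at day 3, against 10.23, 10.41 and 10.31 in TAC vehicle hearts and 10.15, 10.17 and 9.98 in sham vehicle hearts. At day 11 the signal was 10.43, 10.51 and 10.38 in TAC JQ1 hearts, 10.15, 10.22 and 10.24 in TAC vehicle hearts, and 10.02, 10.00 and 10.08 in sham vehicle hearts. By day 28 it was 10.25, 10.45 and 10.50 in TAC JQ1 hearts, 10.09, 10.10 and 10.04 in TAC vehicle hearts, and 10.19, 10.24 and 10.20 in sham vehicle hearts. TAC JQ1 arrays were the highest on each of these days. Smooth muscle and pericytes also hold much vinculin and talin, and of 8 of their markers 3 were higher with TAC at day 3 and 3 at day 11 and 1 was lower at day 28, while with JQ1 1 was higher and 1 lower at day 11 and 4 were lower at day 28. Their part was not tested.

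The JQ1 difference of Vcl was 0.20, 0.24 and 0.32 (log2, SE 0.07, adjusted p = 0.0562, 0.0172 and 0.00149, limma) at days 3, 11 and 28, and the day 11 call ended without TAC vehicle replicate 1 (0.079) or TAC JQ1 replicate 2 (0.0942), or with quantile normalization (0.18, adjusted p = 0.0525). The day 28 call ended when only the groups compared were fitted (0.0512). Without TAC vehicle replicate 2 the day 3 value was 0.25 (adjusted p = 0.0399). TAC alone gave 0.22, 0.17 and -0.13 with no call. Against sham, TAC JQ1 hearts were higher in Vcl by 0.42 ± 0.07 at day 3 and 0.41 ± 0.07 at day 11 (adjusted p = 0.000129 and 0.000337, limma). Pxn, paxillin, a scaffold that recruits kinases to new adhesions, read 9.57, 9.37 and 9.35 in TAC JQ1 hearts at day 3, against 9.05, 9.10 and 9.09 in TAC vehicle hearts and 8.92, 9.01 and 8.99 in sham vehicle hearts. The 3 TAC JQ1 arrays lay above all others of that day, with a JQ1 difference of 0.35 ± 0.07 (adjusted p = 0.00142) that was 0.28 (adjusted p = 0.0138) without TAC JQ1 replicate 1. This Pxn call ended when only the groups compared were fitted (0.0906).

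At day 11 Pxn was higher with JQ1 by 0.21 ± 0.07 (SE, adjusted p = 0.0377, limma), a call that ended without TAC vehicle replicate 1 (0.127) or 2 (0.106), or TAC JQ1 replicate 1 (0.15) or 2 (0.108), or with quantile normalization (0.16, adjusted p = 0.102). TAC alone gave Pxn no call at any day, and against sham the TAC JQ1 hearts were 0.46 and 0.30 higher at days 3 and 11 (adjusted p = 5.17e-05 and 0.00599). Zyx, zyxin, which moves to stressed actin cables, was called higher with TAC at day 3 alone among the single days. Its log2 signal was 9.65, 9.08 and 9.16 in TAC JQ1 hearts, 8.86, 9.20 and 8.97 in TAC vehicle hearts, and 8.61, 8.61 and 8.45 in sham vehicle hearts. The TAC difference was 0.45 ± 0.11 (adjusted p = 0.00992), a call that ended without sham vehicle replicate 3 (0.0644) or TAC vehicle replicate 2 (0.122). Over the 3 days the TAC difference of Zyx ran from 0.25 to 0.45. Its 3-day mean was called higher, a call that held in all 26 alternatives (0.29 to 0.35). The JQ1 difference of Zyx at day 3 was 0.29 ± 0.11 (adjusted p = 0.0911), and 0.38 (adjusted p = 0.0441) without TAC vehicle replicate 2. TAC JQ1 hearts were 0.74 ± 0.11 above sham (adjusted p = 3.77e-05), or 0.56 (adjusted p = 0.000162) without TAC JQ1 replicate 1.

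**Figure D5:**
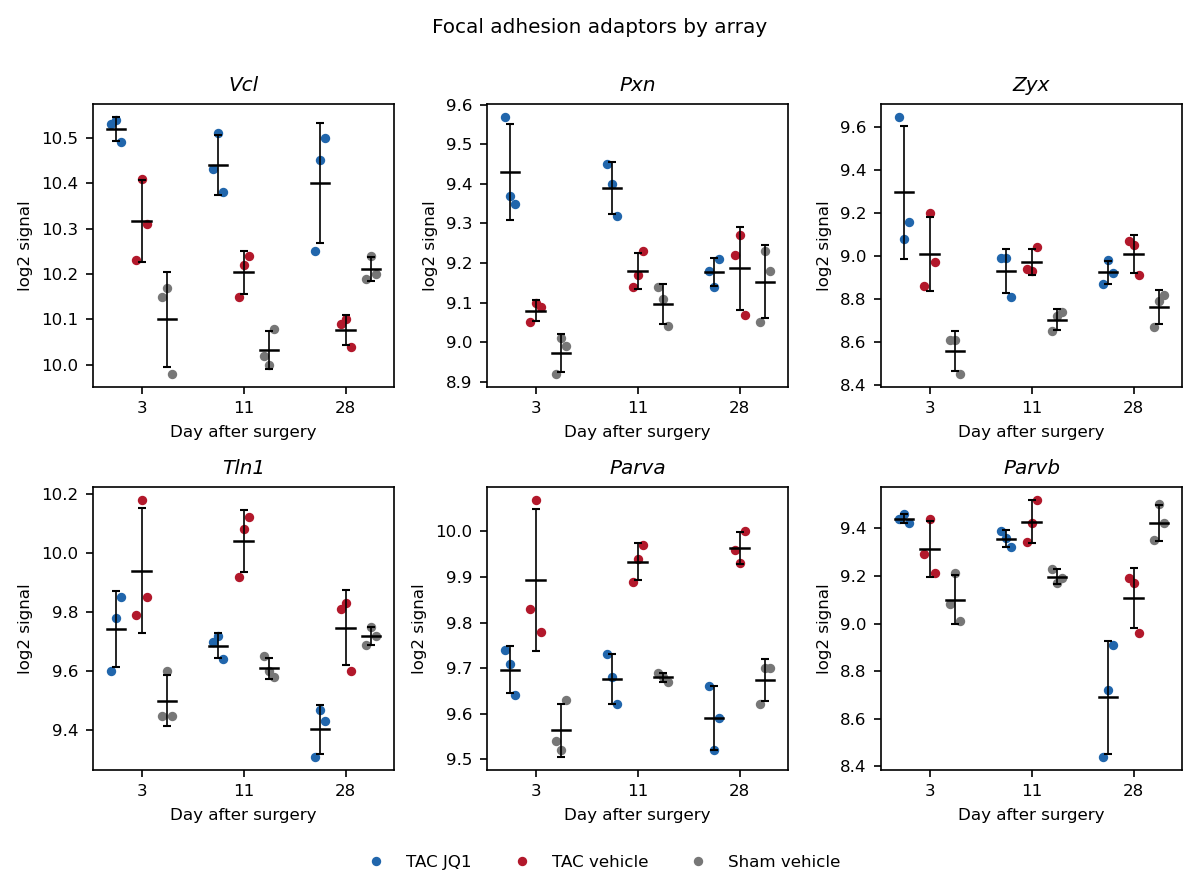
Each panel plots the log2 signal of 1 adaptor gene by day after surgery. Points are arrays (blue TAC JQ1, red TAC vehicle, grey sham vehicle), and black bars are the group mean with its SD (n = 3). Vcl is highest in TAC JQ1 arrays, Parva is highest in TAC vehicle arrays, and Parvb is lowest in TAC JQ1 arrays at day 28, between 8.44 and 8.91.

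Tln1, the talin of most cells, rose with TAC at days 3 and 11 and was lower with JQ1 at days 11 and 28. At day 11 its log2 signal was 9.70, 9.72 and 9.64 in TAC JQ1 hearts, 9.92, 10.08 and 10.12 in TAC vehicle hearts, and 9.65, 9.60 and 9.58 in sham vehicle hearts. At day 28 it was 9.31, 9.47 and 9.43 in TAC JQ1 hearts, 9.81, 9.83 and 9.60 in TAC vehicle hearts, and 9.69, 9.75 and 9.72 in sham vehicle hearts. TAC vehicle arrays stood above the rest at day 11, and TAC JQ1 arrays below the rest at day 28. With TAC the difference was 0.44 and 0.43 (SE 0.09, adjusted p = 0.00298 and 0.00155, limma) at days 3 and 11. With JQ1 the difference was -0.35 and -0.34 (SE 0.09, adjusted p = 0.00936 and 0.00907, limma) at days 11 and 28. Fitting only the groups compared ended the TAC call of day 3 (0.0976) and the JQ1 call of day 28 (0.0504). TAC JQ1 hearts were below sham at day 28 (-0.32 ± 0.09, adjusted p = 0.0128), a call that ended without TAC JQ1 replicate 1 (0.0754). At day 3 the difference of TAC JQ1 hearts from sham was 0.24 ± 0.09 (adjusted p = 0.0658), and 0.31 (adjusted p = 0.032) without TAC JQ1 replicate 1.

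Tln2, the talin that adult heart muscle also uses, had no TAC or JQ1 call and lay below sham in TAC JQ1 hearts at day 28 (-0.24 ± 0.08 SE, adjusted p = 0.0289, limma). There it read 8.79, 8.93 and 8.95 in TAC JQ1 hearts and 9.10, 9.15 and 9.14 in sham vehicle hearts, and the call ended without any sham vehicle array (0.0509 to 0.0872) or without TAC JQ1 replicate 1 (0.158). Fermt2, kindlin-2 of the heart, had differences within 0.11 of 0 in every within-day comparison and no call. Fermt3, kindlin-3 of blood cells, had no within-day call, and its mean JQ1 difference over the 3 days was -0.19 ± 0.06 (adjusted p = 0.0167, limma).

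In the complex of integrin-linked kinase, PINCH and parvin, Parva rose with TAC at every day. Its log2 signal at day 3 was 9.83, 10.07 and 9.78 in TAC vehicle hearts and 9.54, 9.52 and 9.63 in sham vehicle hearts. By day 11 it was 9.73, 9.68 and 9.62 in TAC JQ1 hearts, 9.89, 9.94 and 9.97 in TAC vehicle hearts, and 9.69, 9.68 and 9.67 in sham vehicle hearts. On day 28 the values were 9.66, 9.52 and 9.59 in TAC JQ1 hearts, 9.96, 9.93 and 10.00 in TAC vehicle hearts, and 9.62, 9.70 and 9.70 in sham vehicle hearts. TAC vehicle arrays were clear of both other groups at days 11 and 28, where TAC JQ1 and sham overlapped. The TAC difference was 0.33, 0.25 and 0.29 (SE 0.07, adjusted p = 0.00295, 0.00967 and 0.00401, limma), and the JQ1 difference -0.19, -0.26 and -0.37 (SE 0.07, adjusted p = 0.0608, 0.00953 and 0.000314, limma) at days 3, 11 and 28. Without TAC vehicle replicate 2 the day 3 TAC value was 0.24 (adjusted p = 0.0426). The day 3 TAC call ended when only the groups compared were fitted (0.136).

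Parvb, the parvin paralogue of heart and skeletal muscle, did not follow Parva. At day 28 its log2 signal was 8.44, 8.72 and 8.91 in TAC JQ1 hearts, 9.19, 9.17 and 8.96 in TAC vehicle hearts, and 9.35, 9.50 and 9.42 in sham vehicle hearts, with no overlap between any groups. At day 3 it was 9.44, 9.46 and 9.42 in TAC JQ1 hearts, 9.29, 9.44 and 9.21 in TAC vehicle hearts, and 9.08, 9.21 and 9.01 in sham vehicle hearts. At day 11 it was 9.39, 9.36 and 9.32 in TAC JQ1 hearts, 9.34, 9.42 and 9.52 in TAC vehicle hearts, and 9.23, 9.17 and 9.19 in sham vehicle hearts. Sham arrays were thus the lowest of the groups at day 11 and the highest at day 28. The sham mean itself was 0.32 higher at day 28 than at day 3, with no call. With TAC the difference was 0.21, 0.23 and -0.32 (SE 0.09, adjusted p = 0.189, 0.0958 and 0.0189, limma), and it differed between days (moderated F test, adjusted p = 0.0351).

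For Parvb at day 28 the JQ1 difference was -0.42 ± 0.09 (SE, adjusted p = 0.00211, limma), and TAC JQ1 hearts lay 0.73 below sham (difference -0.73 ± 0.09, adjusted p = 3.8e-06). The JQ1 call ended when only the groups compared were fitted (0.0677). At day 3 TAC JQ1 hearts lay 0.34 ± 0.09 above sham (adjusted p = 0.0103). That call ended without sham vehicle replicate 3 (0.0591) or with only the groups compared (0.0633). The TAC call of day 28 ended without sham vehicle replicate 2 (0.0888) or TAC vehicle replicate 3 (0.143), and the F call without any 1 of 11 of its 18 arrays, with an adjusted p of at most 0.118, or with median centring (0.0538).

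The PINCH genes Lims1 and Lims2 differed in direction. Lims1 read 10.43, 10.26 and 10.42 in TAC JQ1 hearts at day 3, against 10.68, 10.66 and 10.65 in TAC vehicle hearts and 10.61, 10.52 and 10.57 in sham vehicle hearts. At day 11 it read 10.21, 10.41 and 10.17 in TAC JQ1 hearts, 10.47, 10.53 and 10.56 in TAC vehicle hearts, and 10.54, 10.54 and 10.70 in sham vehicle hearts. TAC JQ1 arrays were the lowest on both days. The JQ1 difference was -0.30 and -0.26 (SE 0.07, adjusted p = 0.00847 and 0.0175, limma), and the call ended at day 3 without TAC JQ1 replicate 2 (0.0529) and at day 11 without TAC vehicle replicate 2 (0.0527) or 3 (0.0605), or TAC JQ1 replicate 1 (0.0792) or 3 (0.0866). Against sham, TAC JQ1 hearts were lower in Lims1 by 0.33 at day 11 and 0.21 at day 28 (differences -0.33 and -0.21, adjusted p = 0.00425 and 0.0424). The day 28 call ended without sham vehicle replicate 1 (0.0976) or 3 (0.172), or TAC JQ1 replicate 2 (0.192) or 3 (0.0932).

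Lims2 at day 3 read 10.17, 9.93 and 9.74 in TAC JQ1 hearts, 9.72, 9.27 and 9.66 in TAC vehicle hearts, and 9.98, 9.85 and 9.99 in sham vehicle hearts. TAC lowered it by 0.39 (difference -0.39 ± 0.12 SE, adjusted p = 0.0464, limma) and JQ1 raised it by 0.40 ± 0.12 (adjusted p = 0.0304, limma). Both day 3 calls rest on TAC vehicle replicate 2, the lowest array, and without it the differences were -0.25 (adjusted p = 0.411) and 0.26 (adjusted p = 0.23). The TAC call also ended without any sham vehicle array (0.0569 to 0.153), and the JQ1 call without TAC JQ1 replicate 1 (0.196) or 2 (0.0611). Averaged over the 3 days, Lims2 was called higher with JQ1, and that call held in all 26 alternatives (0.20 to 0.29). Ilk itself, the pseudokinase at the centre of the complex, had no within-day call. Averaged over the 3 days, Ilk was 0.18 ± 0.04 higher with TAC (adjusted p = 0.00291) and -0.17 ± 0.04 with JQ1 (adjusted p = 0.00481, limma).

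In banded hearts given JQ1, fewer members were above sham at later days. At day 3, 7 members were higher and 4 lower in TAC JQ1 than in sham vehicle hearts, beside 6.94% and 10.7% of all genes. At day 11, 3 were higher and 2 lower, beside 5.01% and 5.51%. At day 28 all 9 called members were lower, where 7.36% of all genes were higher and 12.6% lower. When only the groups compared were fitted, 6 members were called at day 3. This comparison shares its arrays with the TAC and JQ1 comparisons, and a difference that is not called is not shown to be absent. For Itgav the day 3 call above sham (0.21 ± 0.07, adjusted p = 0.0463) ended without any sham array (0.0887 to 0.11) or TAC JQ1 replicate 2 (0.107) or 3 (0.158).

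More genes for integrin ligands were higher than lower with TAC, and more were lower than higher with JQ1. Of 28 ligand genes measured from a list of 30, 13, 20 and 16 were higher with TAC at days 3, 11 and 28, and 1 and 2 lower at days 11 and 28. Of all genes, 4.22%, 7.8% and 8.13% were higher at the 3 days, and 7.73% and 6.98% lower at days 11 and 28. With JQ1, 7, 16 and 15 ligand genes were lower, beside 7.61%, 8.43% and 12.4% of all genes. At day 3, 1 was higher, beside 4.28%. The median TAC difference of the ligand genes was 0.29, 0.63 and 0.33, and their median JQ1 difference -0.08, -0.43 and -0.30, at days 3, 11 and 28. Col1a1 and Col1a2 are on both this list and that of the fibroblast markers, some of which were called in the same comparisons. The part of fibroblasts was not tested. Postn, periostin, a matrix protein of activated fibroblasts, was higher with TAC by 2.30, 3.35 and 2.76 (log2, SE 0.24, adjusted p = 4.49e-06, 3.89e-09 and 9.56e-08, limma). At day 28 the signal was 1.42 lower with JQ1 (difference -1.42 ± 0.24, adjusted p = 0.000142, limma). Lamc1, a laminin chain found in most basement membranes, was 0.73 ± 0.06 higher with TAC at day 11 (adjusted p = 1.16e-08) and -0.41 ± 0.06 with JQ1 (adjusted p = 3.07e-05). Tgfb3, whose latent product some alpha v integrins bind, was 1.40 lower with JQ1 at day 28 (difference -1.40 ± 0.17, adjusted p = 3.35e-06).

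Of 39 other focal adhesion genes measured from a list of 42, 15, 15 and 12 were higher with TAC at days 3, 11 and 28, and 2 and 4 lower at days 11 and 28. The shares of all genes were 4.22%, 7.8% and 8.13% higher, and 7.73% and 6.98% lower at days 11 and 28. With JQ1, 4, 13 and 17 of these genes were lower, beside 7.61%, 8.43% and 12.4% of all genes. At day 3, 2 were higher, beside 4.28%. The median JQ1 difference of the list was -0.07, -0.09 and -0.18. Tns3, tensin 3, which binds the beta tail at mature adhesions, had the smallest JQ1 p of the list on all 3 days, with differences of -0.67, -0.71 and -1.09 (log2, SE 0.1, adjusted p = 0.000133, 5.03e-05 and 1.97e-07, limma). Apbb1ip, RIAM, which brings talin to integrins and is abundant in leukocytes, was higher with TAC by 0.75 ± 0.09 at day 28 (adjusted p = 3.46e-06) and lower with JQ1 by 0.69 (difference -0.69 ± 0.09, adjusted p = 5.48e-06). Enah, which extends actin filaments, was higher with TAC by 0.92 and 1.05 (SE 0.13) at days 3 and 11 (adjusted p = 0.000159 and 8.09e-06).

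Among the integrin-named genes that code for no subunit, Itgbl1, a secreted protein with repeats like those of beta subunits, was higher with TAC by 1.68 ± 0.21 at day 11 and 2.06 ± 0.21 at day 28 (log2 SE, adjusted p = 5.84e-06 and 8.13e-07, limma). With JQ1 it was lower by 0.74, 1.21 and 1.62 (differences -0.74, -1.21 and -1.62, SE 0.21, adjusted p = 0.0205, 0.000289 and 7.12e-06) at days 3, 11 and 28. Nmrk2, a nicotinamide riboside kinase of muscle whose product binds integrin beta 1, was higher with TAC by 1.66 and 1.95 (SE 0.34, adjusted p = 0.00348 and 0.000286) at days 3 and 11. Its TAC difference at day 28 was 0.72 (adjusted p = 0.177), and JQ1 gave no call, with 0.74 (adjusted p = 0.187) at day 3. Itgb1bp2, melusin, a muscle protein that binds the Itgb1 tail, was lower with TAC by 0.28 and 0.20 (differences -0.28 and -0.20, SE 0.06, adjusted p = 0.00193 and 0.0256) at days 11 and 28, with no JQ1 call.

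Over the sham vehicle hearts alone, no member was called different between days 3, 11 and 28 (moderated F test, limma), where 0.0652% of all genes were. The smallest adjusted p among the members was 0.431, that of Parvb. In this F test 3 members had an unadjusted p under 0.05: Parvb (0.00551), Pxn (0.0426) and Vcl (0.0486). The sham mean of Parvb was 0.32 higher at day 28 than at day 3.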

How the data were processed

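RNA from 27 mouse heart samples was measured on Affymetrix arrays, after amplification with the Ambion WT Expression kit, per the labels' protocols. The values are log2 signals as the authors deposited them, for 34760 probe sets. The submitters' processing notes name limma, but the step that normalized the arrays was not given in the sources used here. The median of an array was 6.954 at the lowest and 7.043 at the highest, and no arrays were identical. Of 22961 probe sets with a gene, 1321 had several genes and were left out, and the highest-mean probe set stood for each of 19937 genes. The array number limits the precision, and no depth applies. Values of different probe sets were not compared in level.

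With R 4.3.3 and limma 3.58.1, 1 mean per group was fitted over all 27 arrays (lmFit, eBayes, 18 residual and 4.9 prior degrees of freedom), and p-values were adjusted by Benjamini-Hochberg over all 19937 genes. A gene was called at an adjusted p below 0.05. Moderated F tests compared the TAC and JQ1 effects between days. The script was tested on simulated data.

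The members, gene lists and tests were chosen with earlier results of these data known. Array values are given for at most 4 alpha subunits, 4 beta subunits and 4 adaptors per within-day comparison and F test, those called with the smallest p, and other called members have their log2 difference. Of each pathway list, at most 4 called genes per within-day comparison were named, by smallest p. Alternatives were quantile normalization, median centring, leaving out the dimmest 33% of genes, averaging a gene's probe sets, array weights, trend and robust options, a replicate block, fitting only the groups compared, and leaving out each array. Sequences came from RefSeq (GRCm38.p6), which held promoters for 27 of the 39 members.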

Additional observations from a re-analysis of the deposited data

Results flagged for a closer look

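The TAC effect of Itga7 differed between days 3, 11 and 28 (moderated F test, limma, adjusted p = 0.016), with differences from sham of 0.55, 0.12 and -0.38 on the log2 scale. The TAC effect of Parvb differed between days as well (adjusted p = 0.0351), with differences of 0.21, 0.23 and -0.32. The sham mean of Parvb was 0.32 higher at day 28 than at day 3, with no call. The JQ1 effect of Itgb5 differed between days (adjusted p = 0.0305), with differences from TAC vehicle of -0.24, -0.50 and -0.86. Leaving out 1 of the 18 arrays of each test ended the Itga7 call in 2 cases (adjusted p up to 0.0574), the Parvb call in 11 (up to 0.118) and the Itgb5 call in 11 (up to 0.0921). Median centring ended the Parvb call (0.0538), and the Itgb5 call ended with the replicate block (0.0511) or with only the groups compared (0.13).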

How the results depend on the processing

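No called member value changed sign under any alternative run. Of 150 called values, array weights ended 6, median centring 6, quantile normalization 5, averaging probe sets 1, fitting only the groups compared 38, and the replicate block 11, while the trend and robust options ended none and leaving out the dimmest 33% of genes ended none of 146. Leaving out 1 array ended 173 of 1452 such calls.

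The number of members called, in either direction, was 9, 13 and 10 for TAC against sham at days 3, 11 and 28, 12, 18 and 17 for JQ1 against vehicle, and 11, 5 and 9 for TAC JQ1 against sham. With array weights it was 15 and 21 for TAC at days 3 and 11, 9 for TAC JQ1 against sham at day 11, and 7 for sham hearts between days. Fitting only the groups compared, it was 1 for TAC at day 3, 1 and 9 for JQ1 at days 3 and 28, and 6 for TAC JQ1 against sham at day 3. For the TAC effect between days the count was 2, and 4 with quantile normalization, 1 with centring, 8 without the dimmest genes, 5 with trend and robust options, 12 with array weights and 6 with only the groups compared. For the JQ1 effect between days it was 1, and 2 without the dimmest genes, 2 with trend and robust options, 8 with array weights, 0 with the replicate block and 0 with only the groups compared. Of 97 followed member values not called in the main fit, array weights called 39. The share of all genes called under each alternative, or without each array, is not given here. A change in the members is thus not told apart from a general change in calls.

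Leaving out each array in turn gave 4 to 12, 10 to 14 and 6 to 11 members for TAC at days 3, 11 and 28. It gave 8 to 13, 11 to 18 and 13 to 17 for JQ1, and 9 to 12, 4 to 5 and 6 to 8 for TAC JQ1 against sham. For the means over days it gave 15 to 19 with TAC and 25 to 26 with JQ1, and for the TAC and JQ1 effects between days 0 to 3 and 0 to 2. The split of higher and lower calls moved to 8 and 0 for TAC at day 3 with centring. With quantile normalization it moved to 0 and 17 for JQ1 at day 11, and to 6 and 7 and to 1 and 8 for TAC JQ1 against sham at days 3 and 28. The cause of these shifts was not tested.

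Replicate numbers were not used as pairs: of 27 pairs of same-numbered arrays, 7 had a correlation of deviations over 0.1, with a range of -0.46 to 0.5. TAC vehicle and sham vehicle arrays of day 11 had 0.43 for number 2 and 0.5 for number 3. This check does not settle whether numbers pair the samples. With the replicate block, the F test of Itgb5 had an adjusted p of 0.0511. Values near background limit Itgae and Itgax.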
